A study of Homo sapiens with 1 sample.

Results

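The genes described here are 10 immediate early genes taken by symbol: FOS, FOSB, JUN, JUNB, ATF3, EGR1, KLF6, IER2, DUSP1 and ZFP36. They are 10 of the 33538 genes listed for a single-cell RNA-seq library, and every one of them had unique molecular identifiers (UMIs) in the cells analyzed. The source was the human embryonic stem cell line H9, an established line, of genotype WT, which carried the human form of HAR123 (hHAR123), a human accelerated region. The cells were differentiated towards neural progenitor cells (NPCs) with the SMAD pathway inhibitors dorsomorphin and SB431542, with ROCK inhibitor in the first days, through embryoid bodies in rotation and a replated culture. Per the study's methods, 2 independent clones of the genotype were pooled and the cells were collected ahead of the rosette selection step. They were dissociated with Accutase and depleted of dead cells before capture in droplets. The other genotypes of the design are not analysed here, so the hHAR123 cells were compared only among themselves, between cell classes.

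Immediate early genes are transcribed within minutes of a stimulus such as a growth factor, calcium entry, stretch or stress, from promoters that do not need newly made protein. Their mRNAs are short-lived. FOS and JUN family proteins pair through leucine zippers into the AP-1 transcription factor, EGR1 and KLF6 are zinc finger factors, and DUSP1 and ZFP36 act back on the response by inactivating MAP kinases and by promoting the decay of AU-rich mRNAs. Enzymatic dissociation of tissue and cells is also known to induce these genes. No undissociated sample was analyzed here, so RNA made before and after the start of dissociation cannot be told apart.

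The promoters of 5 of the genes are shown with their matches to a few elements known from genes of this response. All 10 genes matched the RefSeq table of GRCh38.p14, and the 150 bases before each start site are given 5′ to 3′ on the strand of the gene. Capitals mark matches on either strand to the CArG box (the site of serum response factor, SRF), to the cAMP response element (CRE) TGACGTCA or its core TGACG, which lies inside it, and to the TATA box TATAAA. FOS is at chr14:75278678-75278827, plus strand; EGR1 is at chr5:138465329-138465478, plus strand. DUSP1 is at chr5:172771196-172771345, minus strand. JUN is at chr1:58784048-58784197, minus strand. JUNB is at chr19:12791336-12791485, plus strand.
FOS: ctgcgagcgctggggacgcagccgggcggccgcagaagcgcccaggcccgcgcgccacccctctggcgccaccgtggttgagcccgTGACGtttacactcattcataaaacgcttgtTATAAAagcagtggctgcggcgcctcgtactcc
EGR1: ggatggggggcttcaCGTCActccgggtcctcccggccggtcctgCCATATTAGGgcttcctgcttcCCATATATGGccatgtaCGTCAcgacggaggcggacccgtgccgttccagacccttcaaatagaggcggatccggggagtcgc
DUSP1: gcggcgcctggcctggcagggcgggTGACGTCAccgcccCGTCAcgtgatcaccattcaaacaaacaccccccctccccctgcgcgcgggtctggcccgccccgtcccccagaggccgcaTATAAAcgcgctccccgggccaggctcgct
JUN: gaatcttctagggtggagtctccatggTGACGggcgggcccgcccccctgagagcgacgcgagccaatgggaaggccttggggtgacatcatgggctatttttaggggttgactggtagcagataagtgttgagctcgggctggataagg
JUNB: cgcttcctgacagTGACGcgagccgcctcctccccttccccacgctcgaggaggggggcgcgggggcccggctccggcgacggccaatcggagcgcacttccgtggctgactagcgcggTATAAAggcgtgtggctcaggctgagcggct

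Within the window from 250 bases before to 50 bases after the start site, the core TGACG was found in 7 of the 10 promoters (FOS, FOSB, JUN, JUNB, EGR1, IER2 and DUSP1), against 24.6% of all 35116 promoters of the table. TATAAA was found in 4 (FOS, FOSB, JUNB and DUSP1), against 11.5% of all. The whole CRE was in the DUSP1 promoter only, at 125 to 118 bases before the start, against 1.85% of all. A CArG box was found in EGR1 only, at -105 to -96 and again at -83 to -74, against 1.29% of all. The ETS core CCGGAA was in FOSB and IER2 (17.2% of all), and the EGR site GCGNGGGCG was in EGR1 and KLF6 (9.43% of all). The AP-1 site TGANTCA was in none of the 10, against 7.71% of all. These matches describe the letters of the window and say nothing about which factor was bound. Elements further from the start, or with other letters than those searched, are not seen, so a missing match does not mean that a gene lacks the element.

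Of 14726 barcodes, 13925 (94.6%) had 2000 to 10000 detected genes and a share of mitochondrial transcripts below 10%, and were kept. They held a median of 17900 UMIs each, from 3167 to 118188. Cells were clustered without the 10 genes and without the other early response genes listed below, and the clusters were named from marker genes. The forebrain NPC-like class held 11788 cells (84.7%; median 16808 UMIs) in 8 clusters, with 8 of 12 forebrain markers and 9 of 10 neural progenitor markers at 50 CPM (UMIs of a gene per 1000000 UMIs of the pooled cells) or more. The contractile-like class held 1974 cells (14.2%; median 44158 UMIs) in 2 clusters, with 10 of 11 contractile markers at 50 CPM or more. In it 3 of 12 forebrain and 5 of 10 neural progenitor markers reached 50 CPM too. In forebrain NPC-like cells 5 of 11 contractile markers did. Summed neural progenitor markers were at 5036 CPM in contractile-like and 2508 CPM in forebrain NPC-like cells. Summed contractile markers were at 15818 and 1841 CPM, and forebrain markers at 590 and 1346 CPM. A differentiating progenitor-like class of 163 cells (1.17%; median 13557 UMIs) had 8 of its 10 markers at 50 CPM or more. The library is 1 sample, so no test between classes is possible, and all intervals are exact 95% intervals for counting error only. In this 3′ assay UMIs count molecules, and CPM are set side by side between genes without a correction for length. ATF3 spans 55444 bases and KLF6, the next longest of the 10 genes, 9286. The part of gene length in the order of the genes was not tested.

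IER2, a small nuclear protein of the early response, was the most abundant of the 10 genes, with 27008 UMIs (85.8 CPM, 84.8 to 86.9) and a UMI in 68.2% of cells. JUN, the basic leucine zipper partner of FOS proteins, followed with 41.8 CPM (41.1 to 42.5; 33.3% of cells). KLF6, a Krüppel-like zinc finger factor, was at 37.4 CPM (36.8 to 38.1; 23.3% of cells). ATF3, a stress-induced leucine zipper factor, was at 28.4 CPM (27.8 to 29.0; 27.9% of cells). DUSP1, a phosphatase of MAP kinases, was at 19.1 CPM (18.6 to 19.6; 21.8% of cells). The 5 remaining genes were found in few cells.

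JUNB, a second JUN family member, had 3965 UMIs (12.6 CPM; 11.5% of cells). EGR1 had 7.996 CPM (7.69 to 8.31; 10.2% of cells) and FOS had 7.20 CPM (6.90 to 7.50; 9.11% of cells). FOSB, the FOS paralog, had 2.07 CPM (1.91 to 2.23; 2.25% of cells), and ZFP36 had 1.89 CPM (1.74 to 2.05; 3.71% of cells). In this order of pooled CPM, FOSB and ZFP36 were the only neighbours whose intervals overlapped. As a mean of per-cell CPM, which gives every cell the same weight, KLF6 had 20.7, below ATF3 at 21.5, and JUNB had 7.50, next to EGR1 at 7.57. Summed over the 10 genes, the level was 244 CPM (243 to 246). No cell class here is known to lack these genes, so no background share from free RNA could be set.

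Some of the genes overlap others. On GRCh38 in GENCODE release 44, FOS (chr14:75278826-75282230), EGR1 (chr5:138465479-138469303), JUN (chr1:58776845-58784048), KLF6 (chr10:3775996-3785281), ATF3 (chr1:212565334-212620777) and ZFP36 (chr19:39406847-39409412) overlap no other gene. JUNB (chr19:12791486-12793315) overlaps HOOK2, and FOSB (chr19:45467995-45475179) overlaps ERCC1, each on the opposite strand. IER2 (chr19:13150411-13154911) and DUSP1 (chr5:172768096-172771195) overlap unnamed genes on the opposite strand. The study's methods name default parameters of Cell Ranger, under which reads of a 3′ library are assigned by strand.

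The spread over cells differed between genes with similar totals. FOS had 1 UMI in 956 cells and at least 10 in 26 cells (0.187% of cells), and those 26 cells held 21.0% of all FOS UMIs, with a maximum of 52 in a cell. EGR1, with 2516 UMIs in all against 2264 of FOS, had at least 10 UMIs in only 7 cells, which held 4.25% of its UMIs, and its maximum was 21. ZFP36 had 1 UMI in 460 of the 517 cells in which it was found, and at most 5. KLF6 had the largest share in cells with at least 10 UMIs: 312 such cells (2.24% of cells) held 51.2% of its UMIs, with a maximum of 71. By the 1% of cells with the most UMIs of each gene, the order was another. Those cells held 73.1% of FOSB, 42.4% of FOS, 36.5% of ZFP36, 35.7% of JUNB and 31.6% of KLF6 UMIs. This share is large by construction for a gene found in few cells, as FOSB (314 cells) and ZFP36 (517) were. These counts were not thinned.

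**Figure D1:**
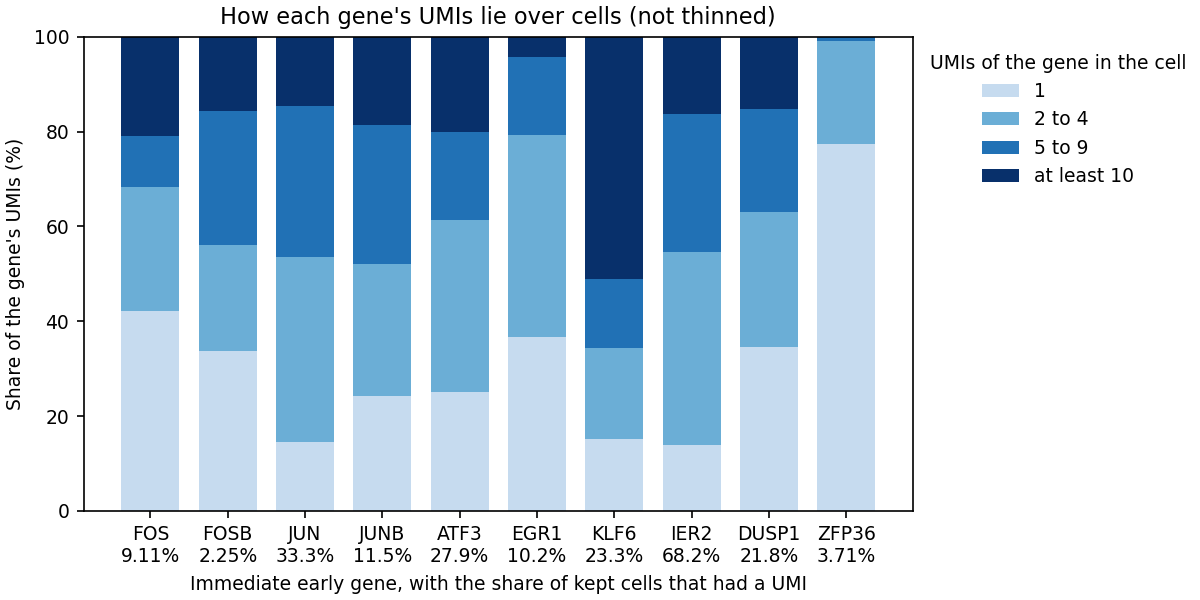
Share of each gene's UMIs (%, vertical axis) that lay in cells with 1, 2 to 4, 5 to 9 or at least 10 UMIs of that gene, over the 13925 kept cells and without thinning; the share of cells with a UMI stands under each symbol. KLF6 has the largest share in cells with at least 10 UMIs (51.2%) and ZFP36 has none there.

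Most of the cells with at least 10 UMIs of a gene were contractile-like, the class with the most UMIs per cell. Of the cells with at least 10 UMIs, 311 of 312 were contractile-like for KLF6, 53 of 53 for JUNB, 63 of 64 for DUSP1 and 101 of 105 for ATF3. JUN had 128 of 153 and IER2 had 263 of 332 in that class. FOS was the most evenly divided, with 15 contractile-like and 11 forebrain NPC-like cells. Their median depth was 42971.5 UMIs, against 66378 for the KLF6 cells.

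At equal depth, FOS had the highest variance over mean of the 10. After each cell was thinned to 5000 UMIs (13897 cells were deep enough, 11770 of them forebrain NPC-like), the variance of FOS counts over cells was 2.54 times their mean in forebrain NPC-like cells, where counting alone gives a ratio (the Fano factor) near 1. FOSB had a Fano factor of 1.59 and JUN of 1.51, just inside the limit of 1.5, and IER2, the next gene, had 1.22. EGR1 had 1.21 and ATF3 1.19, and KLF6 (1.06), JUNB (1.05), DUSP1 (1.04) and ZFP36 (0.995) lay near 1. Thus 3 of 10 genes reached 1.5, and 2 of the 8 with at least 100 thinned UMIs (all but FOSB and ZFP36), against 2.66% of 14478 genes. FOS ranked 42 among them and JUN ranked 375. At a given relative spread the Fano factor is larger for genes with a higher mean. With the variance beyond the mean divided by the squared mean, the order was another. FOSB then had 112.9 (61 UMIs), FOS 51.0, EGR1 5.97, JUN 3.90, JUNB 3.13 and ATF3 2.69.

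A handful of cells carried much of that spread. Without the 18 forebrain NPC-like cells in which 5 or more of the genes were found, which lowers these values by construction, the Fano factor was 1.44 for FOS, 1.41 for JUN and 1.25 for FOSB. In contractile-like cells the order of Fano factors was another: FOS had 2.34, ATF3 1.86 and KLF6 1.66, while JUN had 1.22 and IER2 1.23. The means differed as well, and the factor depends on them. KLF6 had a mean of 0.0462 UMIs in forebrain NPC-like and 0.407 in contractile-like cells. The FOS value there rested on 1 cell, which held 11 of the 98 thinned FOS UMIs: without the cell with the most UMIs of the gene, an alternative added with the data seen, FOS had 1.26, ATF3 1.52 and KLF6 1.58. In forebrain NPC-like cells FOS had 1.605, FOSB 1.51 and JUN 1.43 when treated the same way.

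Between cell classes, 7 of the 10 genes were at least 2-fold higher in contractile-like than in forebrain NPC-like cells in CPM, where 7.54% of 18696 genes with at least 100 UMIs were, and 0 of 10 were at least 2-fold lower, where 22.5% of genes were. Since the clusters come from the same cells, this is a description of the library and not a test. The median ratio of the 10 was 3.84, and that of all genes was 0.786. The summed level was 453 CPM (449 to 458) against 160.1 CPM (158 to 162), a ratio of 2.83 (2.79 to 2.87). Contractile-like cells also held more UMIs, and in UMIs per cell the ratio was 6.87. The class held 14.2% of cells and 28.6% of UMIs.

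In pooled CPM, JUNB had the largest ratio: 35.1 CPM in contractile-like and 3.47 CPM in forebrain NPC-like cells, a ratio of 10.1 (9.36 to 10.97). KLF6 had 103 CPM against 11.1 CPM, a ratio of 9.26 (8.86 to 9.68). The intervals overlapped, and with means of per-cell CPM the order turned, with 8.80 for JUNB and 8.98 for KLF6. These genes, a JUN paralog and a zinc finger factor, stood well apart from the rest. DUSP1 had 42.5 CPM against 9.57 CPM (ratio 4.44, 4.21 to 4.69), and FOSB had 4.53 CPM against 1.09 CPM (4.17, 3.55 to 4.91). ATF3 had 60.8 CPM against 15.5 CPM (3.93, 3.77 to 4.10). ZFP36, the mRNA decay factor, had 3.96 CPM against 1.06 CPM (3.74, 3.16 to 4.43).

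JUN was the last gene past 2-fold, at 73.6 CPM against 29.1 CPM (2.53, 2.45 to 2.62). FOS (10.3 CPM against 5.92 CPM; 1.73, 1.59 to 1.89), IER2 (109.9 CPM against 76.3 CPM; 1.44, 1.40 to 1.48) and EGR1 (9.98 CPM against 7.08 CPM; 1.41, 1.30 to 1.53) were below it. FOS and EGR1, often used as readouts of this response, differed less between the classes than FOSB, JUNB and KLF6 did. At 5000 UMIs a cell, JUNB was found in 13.4% (11.9 to 14.97) of contractile-like and in 1.52% (1.31 to 1.76) of forebrain NPC-like cells. FOS was found in 3.87% (3.06 to 4.82) and 2.39% (2.12 to 2.68).

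**Figure D2:**
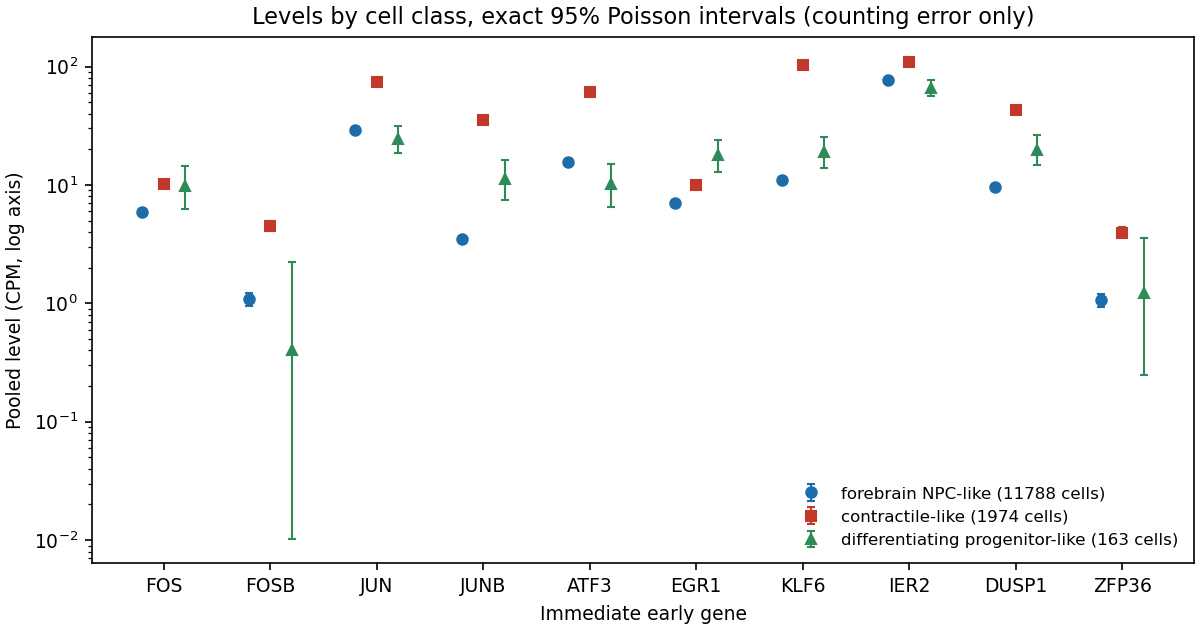
Pooled level (CPM, log axis) of each of the 10 genes in forebrain NPC-like, contractile-like and differentiating progenitor-like cells, with exact 95% Poisson intervals that cover counting error only. The contractile-like squares lie above the forebrain NPC-like circles for all 10 genes, from 1.41 times (EGR1) to 10.1 times (JUNB).

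Within the contractile-like class the summed level rose with depth, but not every gene did. Over its quartiles of UMIs per cell, the summed level was 376.5, 387, 458 and 506 CPM. KLF6 went from 43.8 CPM in the shallowest quartile to 142.9 CPM in the deepest, and JUNB from 19.0 to 44.4 CPM. IER2 went the other way, from 128.8 to 101.6 CPM. ATF3 had no steady course, with 69.0, 55.4, 62.3 and 60.3 CPM. FOS (7.17 CPM in the shallowest and 8.48 CPM in the deepest quartile) was highest in the second, at 13.7 CPM. The contractile-like cluster 9 was shallow (median 9605 UMIs) and had ATF3 at 89.2 CPM. Its part in these values was not tested. In forebrain NPC-like cells the summed level over quartiles of depth was 135, 138.5, 161 and 179.9 CPM, while FOS had its highest value, 8.75 CPM, in the shallowest quartile and 5.55 CPM in the deepest. Over quartiles of mitochondrial share, FOS went from 7.65 to 3.92 CPM and EGR1 from 10.5 to 4.11 CPM in forebrain NPC-like cells, whereas JUN went from 25.2 to 32.2 CPM. The part of depth and mitochondrial share in the class difference was not tested. Thinning keeps the CPM of a cell on average, so the ratio of 2.81 at 5000 UMIs a cell does not bear on it.

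The 163 differentiating progenitor-like cells had 443 UMIs of the 10 genes, 179 CPM (163 to 197) in sum. Against forebrain NPC-like cells, 3 of 10 genes were at least 2-fold higher, where 10.1% of genes were, and 1 was at least 2-fold lower, where 16.8% of genes were. JUNB had 11.3 CPM (ratio 3.27, 2.16 to 4.76), EGR1 had 17.8 CPM (2.51, 1.82 to 3.39) and DUSP1 had 19.8 CPM (2.07, 1.53 to 2.75). FOSB, the gene that was lower, rested on 1 UMI (ratio 0.373, 0.00940 to 2.10), so its direction is not set by these counts.

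Among forebrain NPC-like cells, the clusters with high mitotic markers (5351 cells) and those with low (6437 cells) had summed levels of 167.9 CPM (166 to 170.2) and 151 CPM (149 to 153). KLF6 was the 1 gene of 10 at least 2-fold higher in the high mitotic clusters, where 1.96% of genes were: 15.3 CPM against 6.15 CPM, a ratio of 2.49 (2.27 to 2.73). The clusters differed: the high mitotic clusters 2, 5 and 6 had 13.7, 20.8 and 7.53 CPM of KLF6. The low mitotic cluster 8 had 13.2 CPM. The high mitotic cells were deeper, with a median of 20718 UMIs against 14607, and over quartiles of depth in the whole class KLF6 went from 5.84 to 15.1 CPM. The part of depth in the KLF6 ratio was not tested. No gene of the 10 was at least 2-fold lower there, where 1.39% of genes were, and JUNB had the lowest ratio (0.675, 0.583 to 0.780).

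The 10 genes did not follow 1 order over the 11 clusters. JUN was at 4.38 CPM in cluster 7 (917 forebrain NPC-like cells, led by EPHA3 and C1orf61), against 30.7 CPM in the other forebrain NPC-like clusters (ratio 0.143, 0.109 to 0.184). In the same cluster EGR1 had its highest level of all clusters, 21.6 CPM against 6.12 CPM (3.53, 3.10 to 4.01), within counting error of cluster 10 (17.8 CPM, 12.9 to 23.9). FOS had 11.8 CPM against 5.53 CPM in cluster 7 (2.14, 1.80 to 2.52), within counting error of clusters 3 and 10 (10.4 and 9.71 CPM). ATF3 (0.465, 0.378 to 0.567) and KLF6 (0.360, 0.272 to 0.468) were lower in cluster 7, along with JUN, and so were ZFP36 (0.263, 0.0711 to 0.683), DUSP1 (0.572, 0.449 to 0.718) and IER2 (0.782, 0.729 to 0.839). Cluster 7 therefore combined high FOS and EGR1 with low JUN.

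Cluster 8 (571 forebrain NPC-like cells, led by FGF17) was high in JUN instead, and higher in most of the other genes. JUN had 63.8 CPM against 26.8 CPM in the other forebrain NPC-like clusters (2.38, 2.21 to 2.55), and ATF3 had 33.9 CPM against 14.3 CPM (2.37, 2.14 to 2.62), while EGR1 had 7.22 CPM against 7.07 CPM (1.02, 0.823 to 1.25). FOS was higher here too, as in cluster 7, at 8.26 CPM against 5.77 CPM (1.43, 1.17 to 1.74). The summed level of cluster 8, 254 CPM (246 to 263), was the highest of the forebrain NPC-like clusters, which otherwise ran from 121 CPM in cluster 7 to 185.9 CPM in cluster 2. KLF6 was highest among these in cluster 5, led by the mitotic genes PIF1 and ASPM, at 20.8 CPM against 8.68 CPM (2.39, 2.20 to 2.60). IER2 varied least over clusters, from 60.5 CPM to 131 CPM, 2.16 times, and KLF6 varied most, from 2.76 CPM in cluster 11, which rests on 5 UMIs (0.896 to 6.44), or 4.16 CPM in cluster 7, to 103 CPM in cluster 3.

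Both contractile-like clusters were high in JUNB, KLF6, ATF3 and DUSP1, though they differed in depth. Cluster 3 held 1806 cells with a median of 46455 UMIs, and cluster 9 held 168 cells with a median of 9605 UMIs and a mitochondrial share of 0.141%, far below the 5.16% of all kept cells. Their summed levels were 454 CPM (449 to 458) and 436 CPM (405 to 467). KLF6 had 103 CPM in cluster 3 and 73.9 CPM in cluster 9, and ATF3 had 60.3 CPM and 89.2 CPM. FOS had 10.4 CPM in cluster 3 and 5.64 CPM in cluster 9, where 10 UMIs (2.71 to 10.4) do not set it apart from cluster 3 or from forebrain NPC-like cells.

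**Figure D3:**
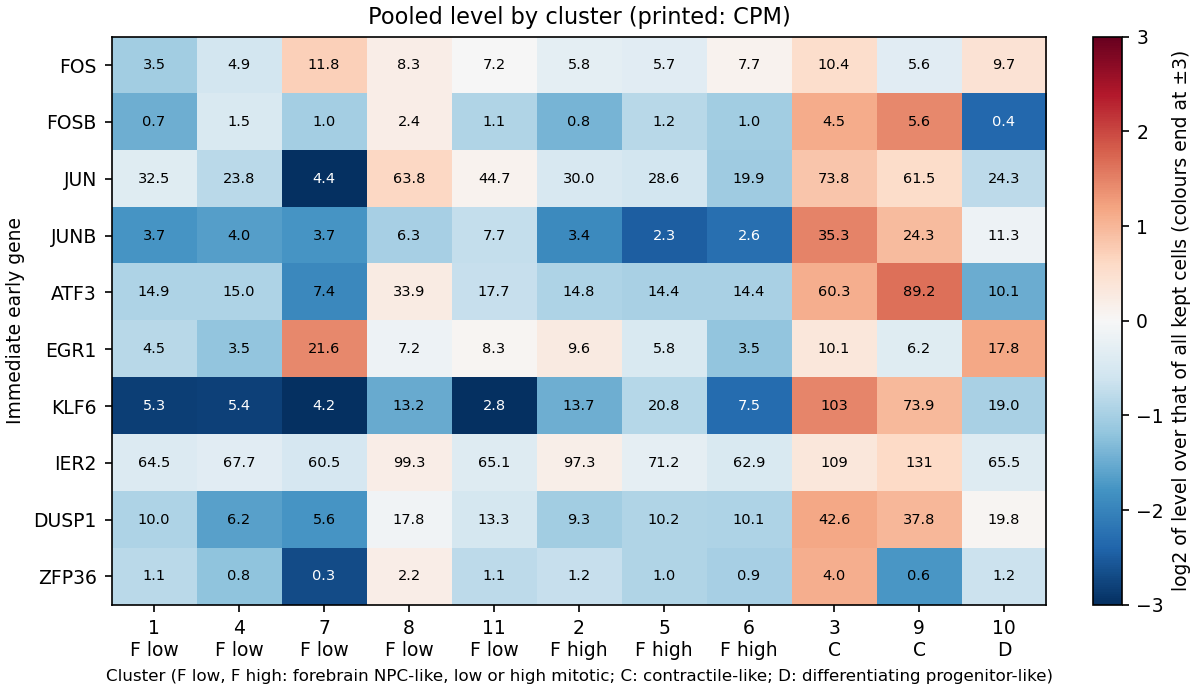
Pooled level of the 10 genes (rows) in the 11 clusters (columns, grouped by class), printed in CPM and coloured by the log2 ratio to all kept cells. Cluster 7 combines the lowest JUN (4.38 CPM) with high FOS and EGR1 (11.8 and 21.6 CPM), and the contractile-like clusters 3 and 9 have the highest JUNB, ATF3, KLF6 and DUSP1.

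Co-detection was measured in forebrain NPC-like cells at 5000 UMIs, as the number of cells with a UMI of both genes over the number given by the product of their shares. Of 45 pairs, 30 had at least 5 cells by the product, all 30 had a ratio above 1, and 14 reached 1.5, against 0.907% of 99141535 pairs of genes. The pairs share genes and cells and are not independent of each other. The median ratio was 1.43.

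Among the 30 pairs with at least 5 cells by the product, FOS and EGR1 had the highest ratio: 43 cells held both, where the product gave 8.79, a ratio of 4.89. In cells with a mitochondrial share below 0.05 the ratio was 3.09. With products taken within each cluster and then summed, an alternative that was added with the data seen, it was 3.67, and FOSB with JUN, which passed the limit of 5 cells there, was higher at 4.12 (21 cells against 5.10). FOS was also found with ATF3 in 35 cells against 17.5 (2.00), with DUSP1 in 25 cells against 12.99 (1.92) and with JUN in 50 cells against 28.9 (1.73). These 3 partners of FOS are a stress factor, a feedback phosphatase and the partner of FOS in AP-1.

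JUN, found in more cells, reached 1.5 with 6 of 8 partners. It was found with JUNB in 35 cells against 18.4 (1.90), with DUSP1 in 101 cells against 55.9 (1.81) and with ATF3 in 136 cells against 75.5 (1.80). EGR1 reached 1.5 with 6 of 7 partners. IER2, in contrast, reached it with 0 of 9: its ratios ran from 1.06 with KLF6 to 1.40 with EGR1, although 467 cells held both IER2 and JUN (349 by the product). IER2 was also the gene found in the most cells, with a UMI in 28.8% of this class.

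FOSB was too rare for most pairs, with 1 of 9 past the limit of 5 cells. Below that limit, 15 cells held FOSB and FOS where the product gave 1.12, and 21 held FOSB and JUN where it gave 4.83. Of ZFP36, the gene with the fewest UMIs, 0 cells held it with FOSB and 1 held it with FOS, against 1.34 by the product. These counts are too small to order the pairs.

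In contractile-like cells (1965 at 5000 UMIs), where each gene was found more often, the median ratio was lower. Of 37 pairs with at least 5 cells by the product, 34 were above 1 and 9 reached 1.5, with a median of 1.18. The share over all pairs of genes was not taken in this class, so these counts are not set against one. FOSB with DUSP1 had the highest ratio (2.06, 11 cells against 5.33) and FOS with JUN the lowest (0.938, 20 cells against 21.3). KLF6 with JUNB had 1.57 (110 cells against 70.0), whereas KLF6 with ATF3 had 1.01 (112 cells against 110.5).

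**Figure D4:**
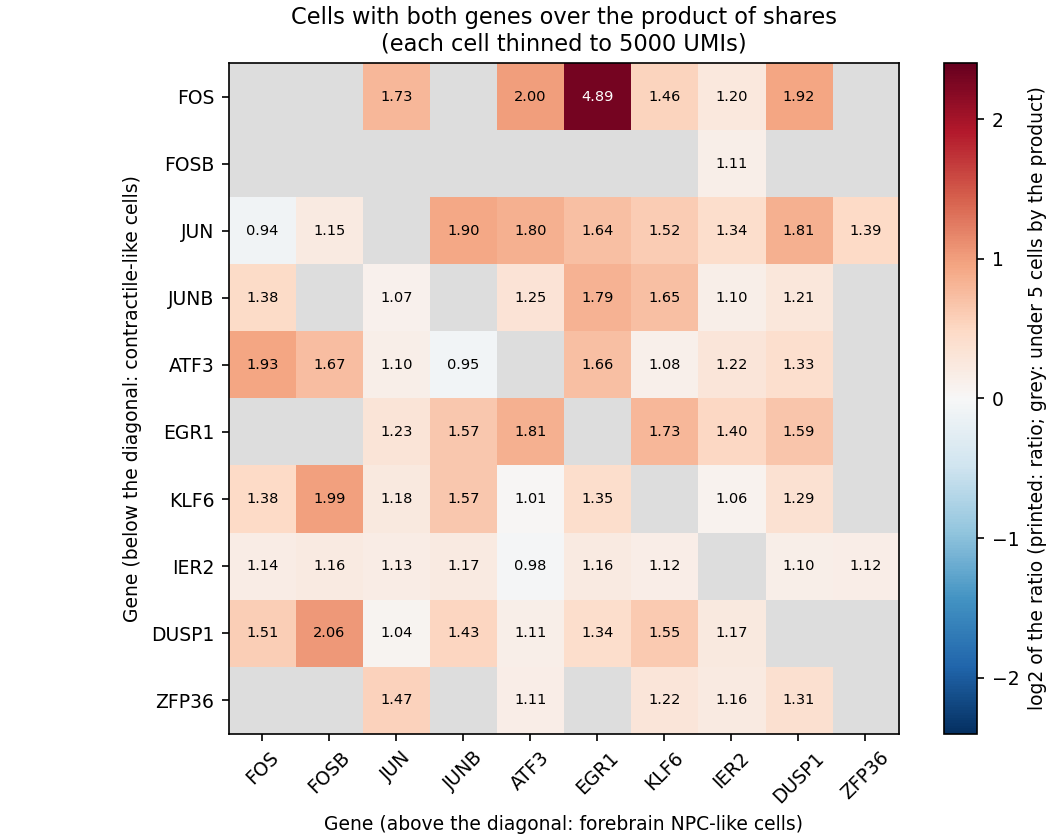
Ratio of the number of cells with a UMI of both genes to the number given by the product of their shares, at 5000 UMIs a cell, in forebrain NPC-like cells (above the diagonal) and contractile-like cells (below it); grey squares had under 5 cells by the product. Of the pairs shown, FOS with EGR1 has the highest ratio (4.89), and the IER2 column stays at or below 1.40.

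Cells with many of the genes at once were rare but more frequent than the products gave. In forebrain NPC-like cells 6252 of 11770 (53.1%) had none of the 10, and 4086 (34.7%) had 1. At least 3 were found in 289 cells (2.46%, 2.18 to 2.75) against 159 by the product, and at least 5 in 18 cells (0.153%, 0.0907 to 0.242) against 0.469. In contractile-like cells at least 5 were found in 43 of 1965 (2.19%, 1.59 to 2.94) against 13.05. The excess was 38.4-fold and 3.30-fold, respectively.

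**Figure D5:**
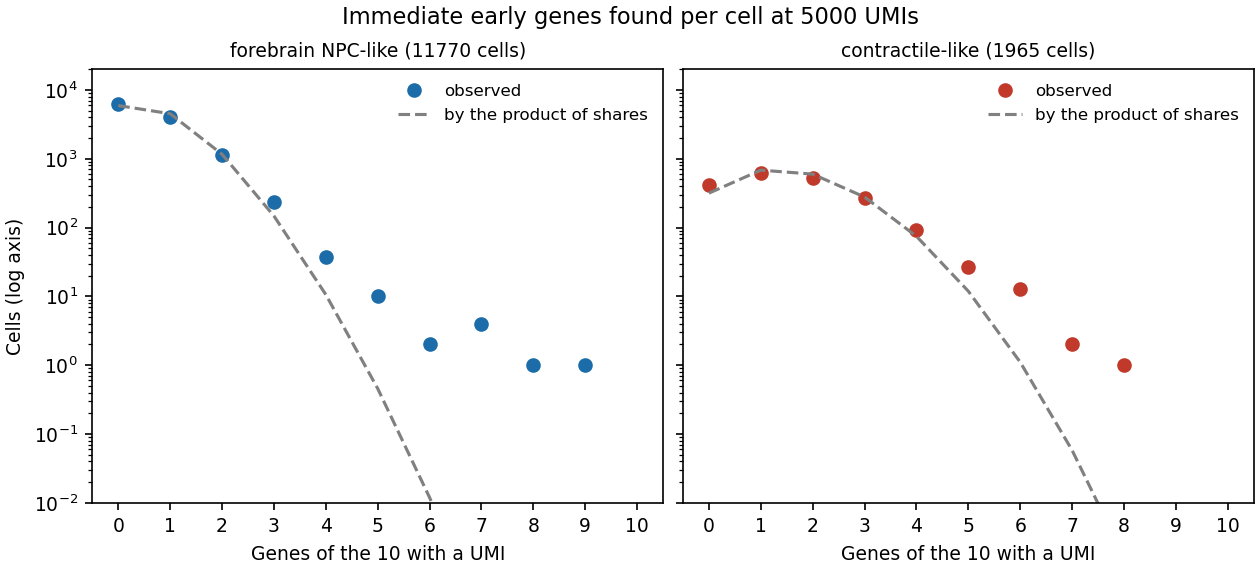
Number of cells (log axis) by how many of the 10 genes had a UMI, at 5000 UMIs a cell, in forebrain NPC-like (left) and contractile-like cells (right). Points are observed cells and the dashed lines are the numbers given by the product of the shares. Forebrain NPC-like points lie above the line from 3 genes on and reach 9 genes.

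The forebrain NPC-like cell with the most UMIs of these genes had 9 of them and 57 UMIs of 5000: 19 of FOS, 13 of IER2, 12 of JUN and 5 of ATF3 among them. It lay in cluster 4, with 10399 UMIs before thinning. The next cell held 8 genes and 15 UMIs, so that this single cell held 19 of the 354 thinned FOS UMIs of the class. Over the 18 cells with at least 5 genes, JUN was found in 17, IER2 in 15, ATF3 and DUSP1 in 13 each, EGR1 in 12, FOSB in 11 and FOS in 10.

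The 18 cells had a median depth of 16431 UMIs, against 16808 in the class, and a median mitochondrial share of 4.57%. The summed contractile markers were at 3278 CPM in them and the summed forebrain markers at 967 CPM, against 1565 CPM and 1373 CPM in forebrain NPC-like cells with under 3 UMIs of the 10 genes. The summed mitotic markers were at 667 CPM (60 UMIs) against 1684 CPM, and the neural progenitor markers at 2411 CPM against 2571 CPM. The part of these markers in the excess was not tested. They came from 5 clusters, with 6 in cluster 2, 5 in cluster 8, 3 each in clusters 1 and 4, and 1 in cluster 11. Among them 6 (33.3%) were in the barcodes with the highest doublet scores, which held 7.79% of the class. Without all such barcodes, 12 of 10852 cells (0.111%) had at least 5 genes and 11 of 29 pairs reached 1.5. Without the 18 cells, which lowers the ratios by construction, 5 of 30 pairs reached 1.5, with a median of 1.22. FOS with EGR1 then had 4.51. No share over all pairs of genes was taken for either of these sets of cells.

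Each gene was also set against the summed UMIs of the other 9 in forebrain NPC-like cells at 5000 UMIs. In cells with at least 2 UMIs of the others, FOS had 15.9 CPM, and in cells with 0 it had 3.99 CPM (ratio 3.99, 3.14 to 5.09). FOSB had the largest ratio, 8.92 (4.75 to 17.8), from 40 and 14 UMIs. EGR1 had 3.11 (2.46 to 3.91), JUN 2.94 (2.59 to 3.33) and ATF3 2.22 (1.87 to 2.63). JUNB and DUSP1 had 1.79 each, KLF6, with 118 and 276 UMIs, had 1.502, and ZFP36, with 11 and 21 UMIs, had 1.65 (0.719 to 3.58). For IER2 the upper cells held at least 1 UMI of the others, and the ratio was 1.41 (1.32 to 1.498). Pearson correlations of each gene with the other 9 over the 11770 cells ran from 0.0184 for ZFP36 to 0.324 for FOS, as a description of sparse counts of 1 library. The value for FOS includes the cell with 19 UMIs of FOS among 57 UMIs of these genes. How far that cell sets the FOS correlation, and its place as the highest, was not tested.

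The forebrain NPC-like cells with at least 3 summed UMIs of the 10 genes at this depth numbered 728 (6.19%), of which 457 lay at the limit, and 1285 cells lay just under it. They made up 13.7% (10.9 to 16.8) of cluster 8, 8.13% (7.09 to 9.26) of cluster 2 and 3.78% (2.94 to 4.78) of cluster 4. Their median depth before thinning was 18743.5 UMIs, against 16702 in the other cells, and their mitochondrial share was 5.10% against 5.19%. Outside the 10 genes, 1.22% of 10497 genes with at least 500 UMIs were at least 1.5-fold higher in them.

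Of those genes, SAMD4A, which encodes an RNA-binding repressor of translation, was the most like the 10, with 177 CPM against 51.4 CPM (ratio 3.43, 3.15 to 3.74). Next were CNN1, the smooth muscle protein calponin (25.8 CPM against 7.63 CPM; 3.39), ANXA3, an annexin (3.31), IQCJ-SCHIP1 (3.30) and NECTIN3-AS1 (3.12). CYR61, a secreted matricellular protein and itself an early response gene, had 89.8 CPM against 29.5 CPM (3.04). AC016766.1 (2.84), TIMP3 (2.83), ANKRD1 (2.79) and AC044810.3 (2.68) completed the 10 highest. Without cluster 8 the ratio of ANKRD1 was 1.93, and the other 9 lay between 2.54 and 3.79.

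Markers of other classes moved with these cells. All 11 contractile markers were higher in the 728 cells, at 2882 CPM in sum against 1565 CPM (ratio 1.84, 1.80 to 1.88), with none at 0. The 8 neural crest markers had a ratio of 1.85 (1.49 to 2.27) at a low level, 27.7 CPM against 15.02 CPM, with DCN and TFAP2B at 0, and the 6 epithelial markers had 1.19 (1.11 to 1.29). The summed forebrain markers had a ratio of 0.942 (0.914 to 0.970), the neural progenitor markers 0.976 (0.956 to 0.997) and the mitotic markers 0.978 (0.952 to 1.00). The part of RNA from other cell types in this result was not tested.

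Some other early response genes were higher in the same cells. Of all 10497 genes outside the 10 with at least 500 UMIs, 1.22% were at least 1.5-fold higher, with a median of 0.991. Lists this small with 0 such genes are not set apart from that share. In the 728 cells, 10 of 19 early response effectors with enough UMIs were at least 1.5-fold higher, with a median of 1.59, among them IER3 (2.59, 2.36 to 2.84), CTGF (2.34, 2.00 to 2.73) and RHOB (2.32, 1.88 to 2.83). Of 3 other early transcription factors JUND (1.87, 1.74 to 2.00) and KLF10 (1.55, 1.18 to 2.00) were. Of 13 upstream kinases and promoter factors 1 was: SRF, the factor that binds CArG boxes (1.95, 1.56 to 2.41). None of 10 heat shock genes was, with a median of 1.03, and HSP90AA1 had 1.01 (0.985 to 1.04). None of 4 p53 targets was, nor either of 2 integrated stress response genes with enough UMIs, of which ASNS had 1.42 (1.12 to 1.79). The other integrated stress response genes, under the limit of 500 UMIs, went both ways and were named after their values were seen. DDIT3 had 1.91 (1.32 to 2.68), CHAC1 2.45 (1.17 to 4.67) and SESN2 1.28 (0.888 to 1.79). VLDLR had 0.872 (0.276 to 2.11) and TRIB3 0.442 (0.0896 to 1.33).

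Between contractile-like and forebrain NPC-like cells, the other genes of the response were divided as well; the shares of all genes were 7.54% higher and 22.5% lower, with a median ratio of 0.786. Of 15 other early transcription factors tested 7 were at least 2-fold higher and 2 lower, with a median ratio of 1.82: BHLHE40 (76.0, 54.8 to 109), FOSL1 (44.9, 38.0 to 53.3) and CSRNP1 (10.98, 9.60 to 12.6) were the highest, while EGR3 (0.288, 0.139 to 0.540) and NR4A2 (0.306, 0.255 to 0.365), an orphan nuclear receptor, were lower. The limit of 100 UMIs counted all kept cells, and BHLHE40 passed it with 37 UMIs in forebrain NPC-like and 1142 in contractile-like cells. FOSL1 is a FOS paralog like FOSB, and EGR3 is an EGR1 paralog. Of 28 effectors with enough UMIs, 17 were higher and 0 lower (median 3.30). They included CTGF (957 CPM against 26.3 CPM; 36.4, 35.4 to 37.4), HBEGF (23.6, 21.7 to 25.7) and GADD45B (21.0, 19.1 to 23.2). Under the limit, ARC (0.221, 0.0860 to 0.477) and EGR2 (0.448, 0.220 to 0.836) were lower, on 7 and 12 contractile-like UMIs. KLF2 was higher (2.57, 1.37 to 4.84), SIK1 had 1.04 (0.574 to 1.81), and EGR4 had 1 UMI in each of these classes. Each of these early response genes was left out of the clustering.

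Upstream of the genes, 2 of 14 kinases and promoter factors were higher, ELK3 (7.91, 7.51 to 8.34), a partner of SRF, and MAP2K1 (2.03, 1.97 to 2.10), and SRF had 1.49 (1.41 to 1.57). All 7 integrated stress response genes were higher (median 5.18), with VLDLR at 8.20 (7.25 to 9.29) and ATF4 at 2.31 (2.26 to 2.37). Of 8 p53 targets 4 were, led by GDF15 (14.4, 12.8 to 16.2) and CDKN1A (9.41, 8.80 to 10.1). None of 11 heat shock genes was, although HSPA8 had 1.75 (1.73 to 1.76) and HSP90AA1 1.07 (1.07 to 1.08).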

How the data were processed

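Single-cell 3′ RNA-seq was measured in 1 library. Per the submitters' processing notes and the study's methods, the authors mapped reads to GRCh38 with Cell Ranger 7.0.1 (default parameters) and combined libraries in Seurat 4.4.0. The deposited values used here are raw UMI counts per gene and barcode, 327640709 in all. The release of the annotation is not given in the sources used here. All barcodes carried 1 suffix, so loading wells could not be told apart.

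Cells with 2000 to 10000 genes and a mitochondrial share below 0.1 (read as a fraction) were kept. Clusters (scanpy 1.11.5, leidenalg 0.10.2; 30 components, 20 neighbours, resolution 0.5) used 1982 of 2000 variable genes, after removal of 18 early genes, 7 of them among the 10. Rebuilt class names may differ from the study's. A cluster took a name from 3 markers at 20 CPM and 3-fold above other cells. Otherwise it was named forebrain NPC-like from 3 forebrain and 3 neural progenitor markers at 50 CPM. Clusters 3, 9 and 10 met both rules and kept the name from the first. The doublet caller marked 1 barcode and was therefore not used to remove cells, and the 8% with the highest scores were left out as an alternative. CPM are pooled UMIs over all UMIs of the cells. Thinning drew 5000 UMIs per cell without replacement, which left out 28 cells (18 forebrain NPC-like, 9 contractile-like, 1 differentiating progenitor-like). Intervals are exact Poisson, binomial or conditional intervals. No test was run, because 1 library has no replicate. The calculations were checked on simulated counts.

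The 10 genes, the gene lists and the marker lists were chosen with earlier results of these data known. Named genes were the 10, the highest of each list and those past 2-fold, and the 10 other genes with the highest ratio in cells high for the 10. Values of 1 gene that this rule names are not reported here. Alternatives changed the filter, the clustering, the depth, the limits and the scaling.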

Additional observations from a re-analysis of the deposited data

Results flagged for a closer look

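Barcodes outside the limits on genes and mitochondrial share also carried UMIs of the 10 genes and are given as values only. They are listed because each sum was above what a count of 0 allows (3 UMIs of each total, counting error only), which any group with over 3 UMIs passes, and which does not measure free RNA. The 520 barcodes with under 2000 genes (median 1552.5 UMIs) had 367 UMIs of the 10 genes, 362 CPM (326 to 401), where the limit was 2.96 CPM. FOS was at 30.6 CPM, FOSB at 15.8 CPM and ATF3 at 78.9 CPM in them, against 7.20, 2.07 and 28.4 CPM in kept cells. The 187 barcodes with a mitochondrial share of 10% or more had 175.7 CPM (158 to 194.5; limit 1.41 CPM), with FOS at 3.30 CPM. The 94 barcodes with over 10000 genes (median 103907 UMIs) had 495 CPM (481 to 509; limit 0.305 CPM), with KLF6 at 153.7 CPM.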

How the results depend on the processing

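No paired analysis was possible because the data hold 1 library and no result comes from a test. The summed level of 244 CPM was 252 with no filter on barcodes, 242 with a mitochondrial share below 0.05, 193 as a mean of per-cell CPM and 189.9 thinned to 5000 UMIs. The ratio of summed levels of 2.83 was 2.88 at resolution 1.0, 6.87 in UMIs per cell, 2.79 with a mitochondrial share below 0.05, 2.93 without the highest doublet scores, and 2.95 without clusters 8 and 9. The 7 genes at least 2-fold higher were 10 in UMIs per cell and 8 at 1.5-fold, and 7 otherwise, with 0 lower throughout. The 3 genes with a Fano factor of 1.5 became 1 at 2500 UMIs, 4 at 10000 UMIs and 1 at a limit of 2. A second random draw gave 2, as did leaving out the 1 cell with the most UMIs of each gene. A mitochondrial share below 0.05 gave 2 as well, and so did leaving out the highest doublet scores. The 14 pairs became 7 of 19 at 2500 UMIs, 29 of 38 in all kept cells and 9 of 37 in contractile-like cells. They were 9 of 25 with a mitochondrial share below 0.05, and 1 at a limit of 2 times. No share over all pairs of genes was taken for these alternatives. The share with at least 5 genes, 0.153%, was 0.0339% at 2500 UMIs, 0.601% at 10000 UMIs, 0.453% in all kept cells, 2.19% in contractile-like cells, and 2.46% for at least 3 genes. The cause of these shifts was not tested, but fewer UMIs per cell leave fewer detections by construction. Of the alternatives to these summary values 44 stayed close to the main value and 21 did not. Close meant inside the interval of the main value, or within 1.5-fold for a count. Summing products over clusters cannot change the Fano count or the share with at least 5 genes, and both are among the 44. Only the ratio of summed levels could be scored as reversed, and it was not. For values of single genes and of FOS with EGR1, 83 alternatives stayed close and 64 did not. Leaving out clusters 8 and 9, summing products over clusters and leaving out the top cell were chosen after seeing the data. ZFP36 (56 thinned UMIs) and FOSB (61) in forebrain NPC-like cells are limited by depth.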
